A study of Homo sapiens with 4 samples.

Results

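The WNT ligands, their receptors, the secreted antagonists and the nuclear factors of the pathway were examined for open chromatin. The list held 44 genes of 20033 protein-coding genes in the annotation: 19 WNT ligands, 12 receptors (FZD1 to FZD10, LRP5 and LRP6), 8 secreted antagonists (DKK1 to DKK4, SFRP1, SFRP2, SFRP4 and WIF1), and a group of 5 genes with the TCF/LEF factors LEF1, TCF7, TCF7L1 and TCF7L2 and the feedback inhibitor AXIN2. A region belonged to a gene when its summit, the position of highest coverage, was at most 50 kb away from a transcription start site (TSS) of the gene in the annotation or in the gene body. By this rule, 181 of the 56680 open regions of one list and 195 of the 62343 open regions of the other belonged to the 44 genes.

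Chromatin accessibility had been measured by ATAC-seq, in which a transposase tags open DNA, in the established human fibroblast line BJ. All cells carried the reverse tetracycline transactivator rtTA, delivered by lentivirus, and a retroviral TRE3G construct switched on with doxycycline for 72 h. The construct encoded KLF4 alone in the control group (CTR), or Myc-tagged ΔNp63α and KLF4 joined by a self-cleaving peptide in the other group (p63), so that both groups expressed KLF4 and differed in ΔNp63α. Each group had 2 samples, which were separate rounds of induction of the same polyclonal lines, and the authors deposited 1 peak list for each group, so that no spread between replicates could be given and no test between the groups was possible.

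WNT proteins are secreted lipid-modified ligands that bind Frizzled receptors together with the co-receptors LRP5 or LRP6. Binding stops the destruction of β-catenin, which then enters the nucleus and acts with the TCF/LEF factors on target genes such as AXIN2, whose product limits the signal. DKK proteins such as DKK1 act on LRP5 and LRP6, whereas SFRP proteins and WIF1 bind the ligands themselves. In skin, this exchange of ligands and antagonists between the epidermis and the dermis is known for its part in the formation of hair follicles.

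The label of the cells was checked at first. Promoter regions were open at 10 of 10 fibroblast genes in both lists, at 5 of 10 keratinocyte genes for CTR and at 6 for p63, where KRT5 was added. Of 4 genes of blood and endothelial cells, PTPRC had an open promoter region in both lists and CD3E, PECAM1 and CDH5 had none. Regions were taken as open at a −log10 q, the peak caller's significance within 1 list, of 10 or more. At this threshold the lowest summit carried 15 stacked reads in each list and the median summit 33, and the background coverage was 1.18 reads in the CTR list against 1.13 in the p63 list. Regions of the p63 list that overlapped no CTR region at the threshold were called p63-only, and the reverse CTR-only. List-only regions either overlapped a peak that fell below the threshold in the other list or overlapped none at all, in which case they were called absent from that list. The same threshold was applied to both lists, and a region just above it in 1 list and just below it in the other also counts as list-only.

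p63 binds a DNA site made of a pair of 10 bp elements. The sites nearest to this consensus in the p63-list regions of WNT genes are shown here. Their regions carry several of the largest differences below. A site was counted within 100 bp of a summit if it kept the C and G of both cores and had no more than 3 mismatches among the remaining 16 positions of its 20 bp. The capitals mark the site and the 20 bp on either side are in lower case, on the plus strand of GRCh38, and each printed site has 3 mismatches. A further site with 3 mismatches lay in a CTR-only region near WNT6 and is not printed. That region had 24 reads in the CTR list against 12 in the p63 list. The WNT4 site (chr1:22137579-22137598) lay in an intron of WNT4 and the TCF7L1 site (chr2:85256119-85256138) in an intron of TCF7L1. The AXIN2 site (chr17:65578092-65578111) lay upstream of AXIN2. These 3 regions were absent from the CTR list.
WNT4: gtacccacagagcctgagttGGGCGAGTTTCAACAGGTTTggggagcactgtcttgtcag
TCF7L1: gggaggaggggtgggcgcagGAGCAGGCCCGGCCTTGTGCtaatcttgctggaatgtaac
AXIN2: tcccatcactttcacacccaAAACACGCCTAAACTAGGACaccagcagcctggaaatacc

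The other p63-only regions with a site overlapped a CTR peak below the threshold. The WNT7A site (chr3:13890969-13890988) lay upstream of WNT7A, the SFRP2 site (chr4:153748601-153748620) next to the TSS of the neighbouring gene RNF175 and within an annotated exon of it, and the FZD5 site (chr2:207806062-207806081) upstream of FZD5. The 20 bp of the FZD5 site occurred at 5 places in the genome, whereas each of the other printed sites occurred at 1 place.
WNT7A: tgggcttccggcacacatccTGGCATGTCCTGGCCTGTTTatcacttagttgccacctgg
SFRP2: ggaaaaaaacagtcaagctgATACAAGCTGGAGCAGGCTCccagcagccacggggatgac
FZD5: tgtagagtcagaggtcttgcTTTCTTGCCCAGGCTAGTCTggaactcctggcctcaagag

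By the summits of the p63 list, shared regions held such a site at 2 places. These were an intron of DKK3 (chr11:12007965-12007984) and a position upstream of WNT7B (chr22:46007538-46007557), and both regions carried more reads in the p63 list.
DKK3: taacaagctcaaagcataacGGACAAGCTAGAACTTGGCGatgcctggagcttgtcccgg
WNT7B: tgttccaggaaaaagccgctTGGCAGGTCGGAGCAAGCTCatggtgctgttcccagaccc

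Open regions were found at 40 of the 44 genes for CTR and at 41 for p63. Over all protein-coding genes, 91.2% and 92.1% had a region by the same rule. WNT9B, FZD10 and SFRP4 had no region at the threshold in either list, and FZD10 and SFRP4 had no deposited peak at all. FZD9, a Frizzled receptor gene, had no region in the CTR list against 1 in the p63 list. The median number per gene was 3.5 in the CTR list against 4 in the p63 list, compared with 4 and 5 over all genes. The largest numbers in the p63 list were at TCF7L1 with 17 regions, TCF7L2 with 12 and DKK3 with 12, and these genes had 14, 12 and 10 regions in the CTR list. Regions of neighbouring genes were counted once: 12 regions of the p63 list and 11 of the CTR list belonged to more than 1 of the 44 genes, such as WNT1 with WNT10B and WNT6 with WNT10A. The nearest protein-coding TSS was that of a listed gene for 153 of the 195 regions, and the remaining regions lay closer to another gene.

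**Figure D1:**
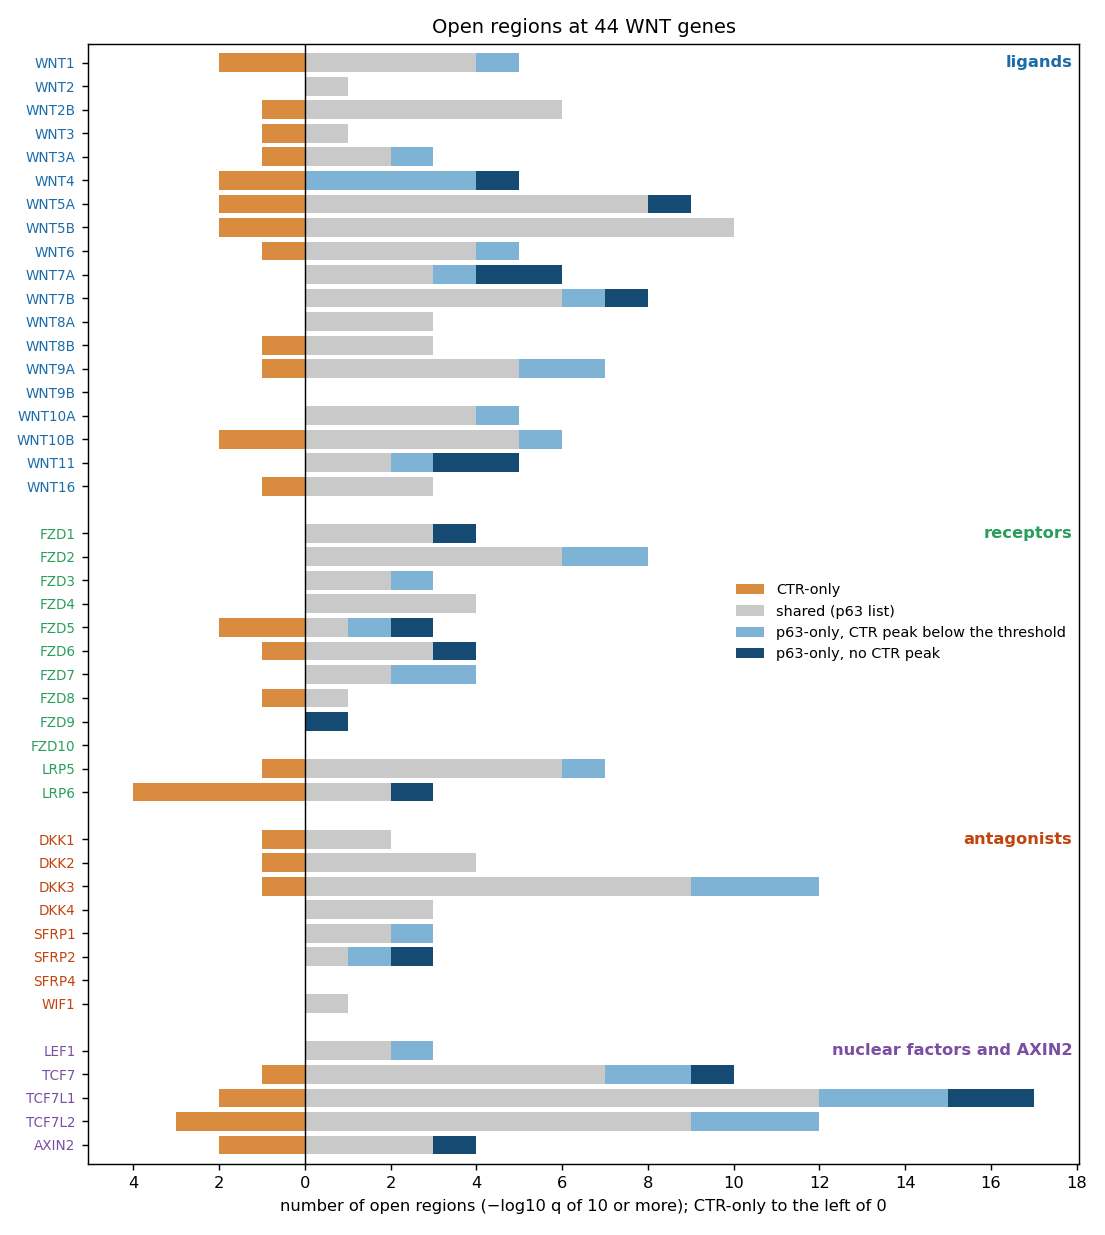
Number of open regions at each of the 44 genes, by class. Bars to the right of 0 are regions of the p63 list, divided into shared, p63-only with a CTR peak below the threshold and p63-only with no CTR peak, and bars to the left are CTR-only regions. TCF7L1 has the longest bar with 17 regions of the p63 list, all 5 p63-list regions of WNT4 are p63-only, and WNT9B, FZD10 and SFRP4 have no bar. A region of neighbouring listed genes appears at each of them.

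The share of p63-only regions at WNT genes was near that of the whole list. Of the 195 regions, 49 were p63-only, a share of 25.1% with a 95% Wilson interval of 19.6 to 31.7%, against 23.9% of all regions of the p63 list. Of the 181 CTR regions, 35 were CTR-only, or 19.3% with an interval of 14.2 to 25.7%, against 16.5% of all. Intervals cover counting error only, and a region open in fewer cells cannot be told apart from one that is less open in each cell. With no CTR peak at any threshold, 17 regions remained, or 8.72% with an interval of 5.51 to 13.5%, against 12% of all regions. The reverse held for 5 CTR regions, or 2.76% with an interval of 1.19 to 6.30%, against 3.29%. All 4 intervals held the share of the whole list. At a −log10 q of 20 or more, however, 6 of 89 CTR regions were CTR-only, or 6.74% (3.13 to 13.9%), against 15.4% of all, and this interval left out the share of the whole list. The p63-only share at that threshold was 30.3% (22.7 to 39.0%), against 24.6%. The p63 list was the longer one. With equal numbers of top-ranked peaks, 38 of 175 regions were p63-only, or 21.7% (16.2 to 28.4%). CTR-only regions were then 43 of 181, or 23.8% (18.1 to 30.5%). Over all regions the share was 20.7% in each list. The larger number of p63-only than CTR-only regions at WNT genes thus did not hold with lists of equal length.

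The genes that held these regions were set beside all genes. A p63-only region was found at 28 of the 44 genes, against 58.2% of all protein-coding genes, and a region absent from the CTR list at 14 of 44, against 37.2%. A CTR-only region was found at 24 genes, against 41.9%. The list-only regions were of both kinds at 16 genes, among them WNT4, WNT5A, FZD6, DKK3 and TCF7L1. They were p63-only at 12 genes, which were WNT7A, WNT7B, WNT10A, WNT11, FZD1, FZD2, FZD3, FZD7, FZD9, SFRP1, SFRP2 and LEF1. They were CTR-only at 8 genes, which were WNT2B, WNT3, WNT5B, WNT8B, WNT16, FZD8, DKK1 and DKK2. WNT2, WNT8A, FZD4, DKK4 and WIF1 had shared regions only.

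The 4 classes had similar shares. Of the ligand regions, 18 of 79 were p63-only, or 22.8% with an interval of 14.9 to 33.2%. The receptors had 12 of 42, or 28.6% with an interval of 17.2 to 43.6%, and the antagonists 6 of 28, or 21.4% with an interval of 10.2 to 39.5%. The nuclear factors with AXIN2 had 13 of 46, or 28.3% with an interval of 17.3 to 42.5%. CTR-only regions made up 19.5% of the ligand regions (15 of 77), 23.1% of the receptor regions (9 of 39), 12.5% of the antagonist regions (3 of 24) and 19.5% of those of the nuclear factors with AXIN2 (8 of 41). Every interval of a class held the share of the whole list, and the intervals of the classes overlapped. At least 1 p63-only region was found at 11 of 19 ligand genes and 9 of 12 receptor genes, against 58.2% of all protein-coding genes. The antagonists had one at 3 of 8 genes and the last class at 5 of 5. A gene with more regions has more chances to hold a p63-only one, and the last class held 46 regions at 5 genes. The part of region number in these counts was not tested.

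Other genes of the pathway were counted in the same way. This list held 40 genes, with the secretion factors PORCN and WLS, the R-spondins with their LGR receptors, the DVL scaffolds, CTNNB1 and the TLE corepressors among them. Of their 247 regions in the p63 list, 53 were p63-only, or 21.5% with an interval of 16.8 to 27.0%, and 35 of 225 CTR regions were CTR-only, or 15.6% with an interval of 11.4 to 20.9%.

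**Figure D2:**
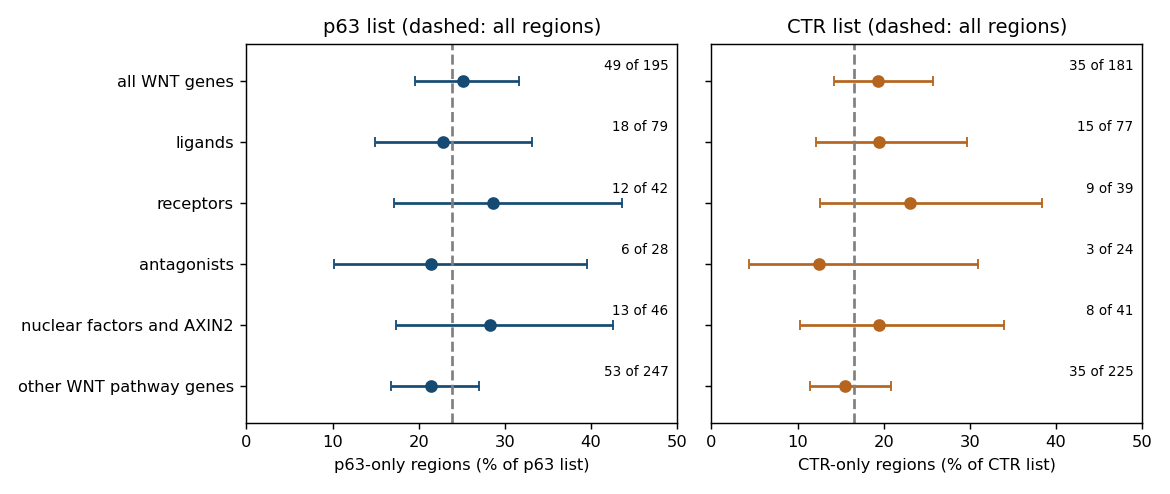
Share of list-only regions by class, with 95% Wilson intervals. The left panel shows p63-only regions in percent of the p63 list and the right panel CTR-only regions in percent of the CTR list, with the counts at the right edge and the share over all regions, 23.9% and 16.5%, as a dashed line. Each interval crosses the dashed line of its panel.

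The promoters of most WNT genes had the same state in both lists. A region within 3 kb of a TSS was found at 26 of the 44 genes for CTR and at 27 for p63, against 69.5% and 70.8% of all genes. Promoter regions were found at 10 of 12 receptor genes in both lists, the exceptions being FZD9 and FZD10. Among the ligands, WNT2B, WNT4, WNT5A, WNT5B, WNT7B, WNT9A, WNT10A and WNT10B had one in both lists, and the other 11 had none at the threshold in either. DKK1, DKK2, DKK3 and SFRP1 had an open promoter region in both lists, whereas DKK4, SFRP2, SFRP4 and WIF1 had no promoter peak at any threshold.

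By the 3 kb window, LEF1, a nuclear partner of β-catenin, was the one gene whose promoter passed the threshold in the p63 list but not in the CTR list. Over all genes, 3.21% had this pattern and 1.84% had the reverse, which no WNT gene had. The LEF1 region (chromosome 4, 108168580 to 108169392) had a −log10 q of 13 in the p63 list and 8.72 in the CTR list. Its summit carried 28 reads in the p63 list, and the summit of the overlapping CTR peak carried 22. Here and below, reads are those at the summit in each list, and the positions of the summits can differ. List-only regions were chosen by the significance of these same summits. The interval of a read ratio at such a region therefore gives counting error only and is not a test of a difference. After scaling by the background coverage the p63/CTR ratio of the reads was 1.33, with a 95% counting interval of 0.734 to 2.44. The interval held 1, so that the change of call at LEF1 was not a difference in coverage detectable at this depth. At a −log10 q of 20 or more, LEF1 had no promoter region in either list, and FZD8 was the one gene with a promoter region in the p63 list alone. The calls also depended on the promoter rule. With a window of 1 kb, LEF1 and WNT4 had one in the p63 list alone and WNT9A in the CTR list alone. With canonical TSSs, LEF1 and WNT4 had one in the p63 list alone.

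Several regions near ligand genes were open in the p63 list alone. WNT4, a ligand known for its part in kidney and gonad development, had 5 regions in the p63 list, all p63-only, and 2 regions in the CTR list, both CTR-only. The region with the printed site (chromosome 1, 22137338 to 22137854) lay 5485 bp downstream of a TSS in an intron, with a −log10 q of 23.5, an 8.5-fold enrichment and 38 reads, and no CTR peak overlapped it. The other 4 overlapped CTR peaks below the threshold, with 17 to 25 reads in the p63 list against 10 to 17 in the CTR list, and the regions at 686 bp and 118 bp from a TSS shared the same CTR peak of 15 reads. Only the region 38943 bp upstream of WNT4 had a ratio whose interval lay above 1, at 2.3 with an interval of 1.04 to 5.44, from 10 reads in the CTR list against 22 in the p63 list. The 2 CTR-only regions of WNT4 had 20 reads against 21 and 16 against 7, and both intervals held 1.

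WNT7A, a ligand made by epidermal cells, had 3 regions in the CTR list against 6 in the p63 list, of which 3 were p63-only and none of the CTR regions was CTR-only. The region with the site (chromosome 3, 13890529 to 13891052) lay 10839 bp upstream of WNT7A and went from 14 reads to 44, a ratio of 3.28 with an interval of 1.77 to 6.49. A second p63-only region 16629 bp upstream had 35 reads and a −log10 q of 18.1, and the last, in an intron, had 19 reads and 10.1, both with no CTR peak. Among the shared regions of WNT7A, 2 also had intervals above 1: an intronic region went from 22 reads to 40, a ratio of 1.90 (1.1 to 3.36), and another from 56 to 86, a ratio of 1.6 (1.13 to 2.29).

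WNT11, a ligand of the β-catenin-independent branch, had 2 regions in the CTR list against 5 in the p63 list. Of these, 3 were p63-only. The strongest (chromosome 11, 76179854 to 76180748), 26274 bp downstream of a TSS and outside the gene, carried 17 reads in the CTR list against 41 in the p63 list, a ratio of 2.52 with an interval of 1.40 to 4.73. The other 2 had 31 and 24 reads, −log10 q values of 18.4 and 11.2, and no CTR peak. WNT5A, a ligand of the same branch, had 1 region absent from the CTR list, with 18 reads and a −log10 q of 14.1, 30025 bp downstream of a TSS. WNT7B, which is close to WNT7A in sequence, had a p63-only region absent from the CTR list in an intron, with 24 reads and a −log10 q of 14.1. The remaining p63-only ligand regions lay at WNT3A, WNT7B, WNT9A, WNT10A and WNT10B, and among them those at WNT7B and WNT9A had intervals above 1, with 16 reads against 31 and 12 against 29.

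The CTR-only regions near ligand genes had lower −log10 q values. The 2 of highest −log10 q were at WNT10B (chromosome 12, 48936339 to 48936702), at 14.8 with 21 reads in the CTR list against 11 in the p63 list, and at WNT9A (chromosome 1, 227947823 to 227948759), at 14.5 with 39 reads and 26. Their ratios of 0.547 (0.238 to 1.19) and 0.696 (0.407 to 1.17) had intervals that held 1. The WNT10B region lay 34118 bp from a TSS of the gene and closer to another protein-coding gene, and that of WNT9A at 442 bp upstream of its TSS. A CTR-only region at WNT2B with 16 reads had no p63 peak.

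Receptor genes had 12 p63-only regions, of which 5 were absent from the CTR list. The strongest lay at FZD6, a Frizzled of planar cell polarity (chromosome 8, 103275230 to 103275720), 23003 bp upstream of a TSS, with 34 reads and a −log10 q of 27.6. The next lay 20316 bp upstream of FZD1 (chromosome 7, 91243913 to 91244280), with 36 reads and a −log10 q of 26. FZD5 had 1 with 20 reads at 16.3, LRP6 had 1 in an intron with 16 reads at 11.8, and FZD9 had 1 with 19 reads at 11.2, which was the only open region of FZD9 and lay 39131 bp upstream. The FZD5 region that held the site went from 8 reads to 25, a ratio of 3.27 with an interval of 1.43 to 8.37, and lay closer to the TSS of PLEKHM3 than to that of FZD5. Of the other 6, the regions at LRP5 (14 reads against 27) and FZD7 (19 against 33) had intervals above 1, with lower bounds of 1.02 and 1.0.

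CTR-only receptor regions were led by LRP6, the WNT co-receptor, with 4 of them. The strongest (chromosome 12, 12092396 to 12093017) had 25 reads in the CTR list against 13 in the p63 list, a −log10 q of 19.3 and a ratio of 0.543 with an interval of 0.255 to 1.1. It lay 39025 bp from a TSS of LRP6 and closer to BCL2L14. Regions with no p63 peak were found at FZD6, 9555 bp upstream with 21 reads and a −log10 q of 17.4, at FZD8 with 21 reads and 16.6, and at FZD5 with 18 reads and 13.8. FZD6 and FZD5 thus had regions absent from each list.

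Antagonist genes had 6 p63-only regions, and among them was the strongest of all 49. This region (chromosome 4, 153748376 to 153748974) belonged to SFRP2, a secreted Frizzled-related protein of dermal cells, by the 50 kb window. It lay 40436 bp downstream of the TSS of SFRP2, beyond its 3′ end, and 102 bp from the TSS of RNF175, so that it is a promoter region of RNF175. It had 16 reads and a −log10 q of 8.31 in the CTR list, and 58 reads and 48.9 in the p63 list, with a 14.3-fold enrichment there. The ratio was 3.79 with an interval of 2.15 to 7.06. A second p63-only region 3294 bp upstream of SFRP2 had 21 reads, a −log10 q of 15.5 and no CTR peak. The SFRP1 region (chromosome 8, 41323271 to 41323999), 14139 bp upstream of this antagonist gene, went from 6 reads to 31. Its ratio of 5.40, with an interval of 2.22 to 15.8, was the highest among the p63-only regions that overlapped a CTR peak. The 6 reads were also the lowest count among those CTR peaks. Regions with no CTR peak have no ratio. DKK3, a divergent member of the DKK family, had 3 p63-only regions, of which the 2 in introns had 23 reads against 39 and 24 against 42, with ratios of 1.77 (1.03 to 3.11) and 1.83 (1.08 to 3.16).

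DKK1, DKK2 and DKK3 each had 1 CTR-only antagonist region. The 2 of highest −log10 q were at DKK1, with 17 reads in the CTR list against 13 in the p63 list at a −log10 q of 12.6, and at DKK3, with 21 reads and 13 at 12.3. Their ratios of 0.799 (0.357 to 1.75) and 0.647 (0.298 to 1.35) had intervals that held 1. DKK1, the best studied inhibitor of LRP6, had no p63-only region.

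TCF7L1, a TCF factor known as a repressor in skin stem cells, had the most p63-only regions together with WNT4, 5 each. The strongest at TCF7L1 (chromosome 2, 85245918 to 85246524), in an intron, had 23 reads in the CTR list against 58 in the p63 list, a −log10 q of 39.2 and a ratio of 2.63 with an interval of 1.6 to 4.48. The next (85274179 to 85274726), also in an intron, went from 27 reads to 62, at a −log10 q of 33.1 and a ratio of 2.40 (1.5 to 3.92). Both were p63-only through CTR peaks that fell just short, with −log10 q values of 8.03 and 9.63. TCF7L1 also had 2 intronic regions absent from the CTR list, with 23 and 18 reads and −log10 q values of 10.2 and 11.7, and the former held the printed site.

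TCF7, a TCF factor best known in T cells, had a region absent from the CTR list 25582 bp upstream (chromosome 5, 134088921 to 134089449), with 33 reads and a −log10 q of 26.2. It was the only p63-only region at a WNT gene with the TCF/LEF sequence CTTTGAT within 100 bp of its summit, against 2.04% of all p63-only regions. A further region 7062 bp upstream of TCF7 went from 8 reads to 26, a ratio of 3.40 with an interval of 1.49 to 8.68. At TCF7L2, a region in an intron (chromosome 10, 113106946 to 113107498) had 22 reads against 38 and a −log10 q of 27.1, with a ratio of 1.80 (1.04 to 3.20). The AXIN2 region with the site, 16388 bp upstream of this feedback inhibitor (chromosome 17, 65577761 to 65578332), had 27 reads and a −log10 q of 22.2 in the p63 list and no CTR peak. The 2 CTR-only regions of highest −log10 q in this class were at TCF7L2 and AXIN2, both at 14.8, with 28 reads against 15 and 22 against 13. Their intervals of 0.278 to 1.08 and 0.286 to 1.28 held 1.

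**Figure D3:**
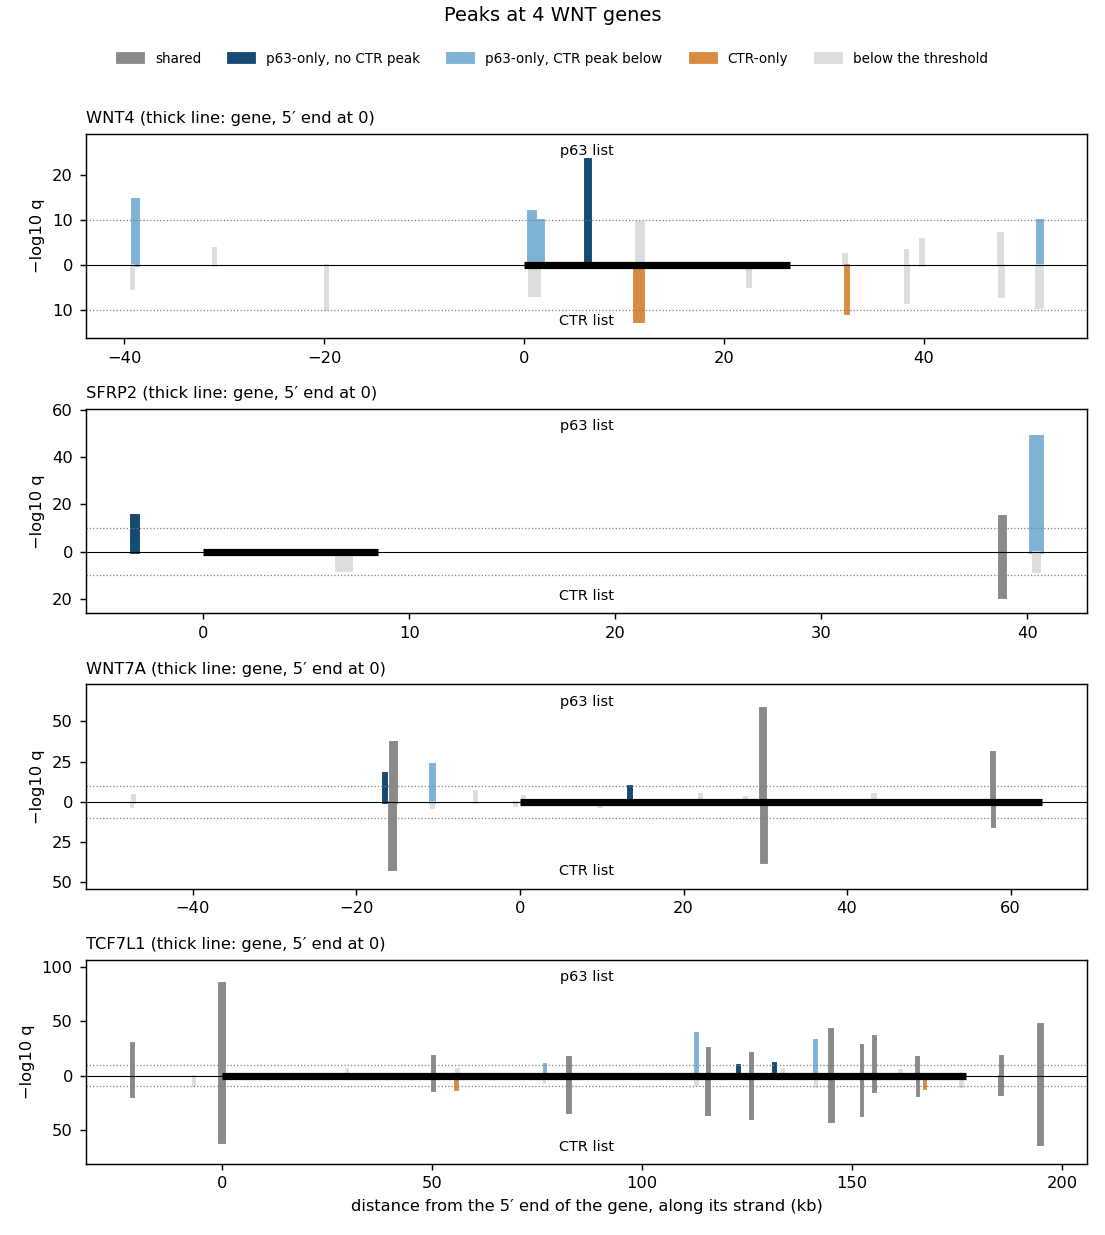
Peaks at WNT4, SFRP2, WNT7A and TCF7L1, with the p63 list above the line and the CTR list below. The height is the −log10 q, the dotted lines mark the threshold of 10, and the horizontal axis is the distance in kb from the 5′ end of the gene along its strand, where the thick line is the gene and peaks are outlined so that narrow ones can be seen. At WNT4 no peak above the threshold has a counterpart above it in the other list, and the tallest bar at SFRP2, at 48.9, lies beyond the gene next to RNF175.

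The list-only regions were compared by the reads at their summits, with each count taken at the summit of its own list's peak. The 32 p63-only regions with a CTR peak below the threshold had scaled ratios of 1.04 to 5.40, with a median of 1.81, and overlapped 31 different CTR peaks. Their direction is fixed by the way they were chosen. The interval lay above 1 for 16 of them, or 50% (33.6 to 66.4%), against 31.1% of all regions of this kind. The 30 CTR-only regions with a p63 peak below the threshold had ratios of 0.457 to 1.1, with a median of 0.696. None of their intervals lay under 1, and 0 of 30 allows a share of up to 10% by a limit of 3 counts, against 8.39% of all such regions. Without scaling, which lowers each ratio, the first count was 11 of 32, or 34.4%, against 27.6% of all, and the second remained 0 of 30, against 10.7%. The intervals that no longer lay above 1 were those with lower bounds of 1.04 or less. They were at WNT4, LRP5, FZD7, TCF7L2 and 1 of the DKK3 introns. The excess over the whole list among the p63-only regions thus depended on the scaling.

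**Figure D4:**
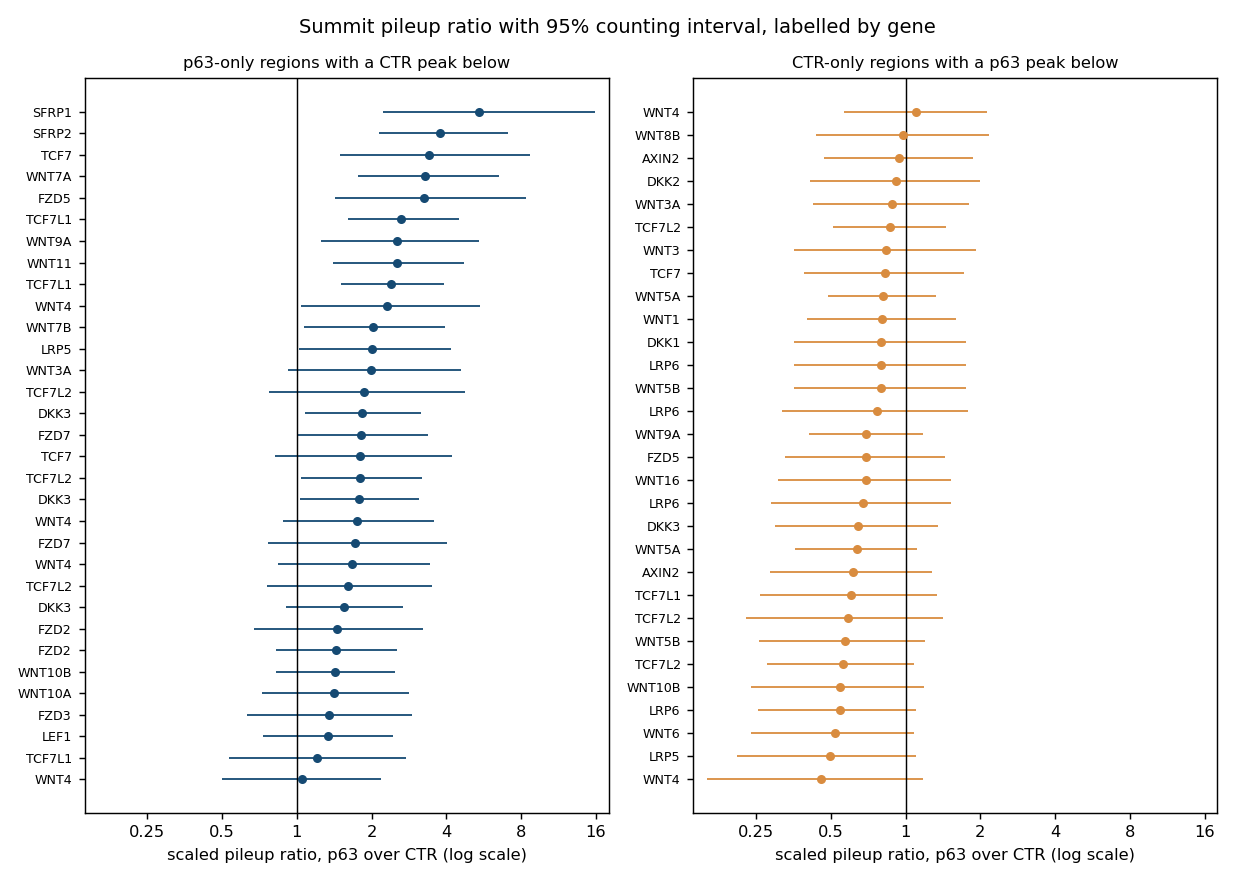
Scaled p63/CTR ratio of the reads at the summit, on a log scale, for list-only regions that overlap a sub-threshold peak in the other list, one row per region labelled by its gene. Points are ratios and lines are 95% counting intervals. In the left panel 16 of 32 lines lie wholly above 1, led by SFRP1 and SFRP2, and in the right panel all 30 lines cross 1.

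The p63-only regions reached higher significance than the CTR-only regions. Their median −log10 q was 15.5, with a range of 10.1 to 48.9, and 14 of 49 reached 20, or 28.6% (17.8 to 42.4%), against 25.2% of all p63-only regions. The CTR-only regions had a median of 12.4 and a range of 10.2 to 19.3, and 0 of 35 reached 20, which allows a share of up to 8.57%, against 7.18% of all CTR-only regions. The same contrast was present over the whole lists.

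Shared regions differed little. Of 145 shared pairs, the fold enrichment was at least 1.5 times higher in the p63 list for 4, or 2.76%, and at least 1.5 times lower for 0, after division by the median ratio of 1.04 over all 47197 pairs. Over all pairs, 2.24% were stronger and 2.02% weaker, and 0 of 145 allows a share of up to 2.07%. The median of the WNT pairs on this scale was 0.984, and 90% of all pairs lay between 0.731 and 1.37. Among the 40 other genes of the pathway, 5 pairs were stronger and 6 weaker.

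The stronger pairs lay at WNT5A, TCF7L1, FZD1 and WNT7B. The WNT5A region (chromosome 3, 55458261 to 55458726), 11662 bp downstream of a TSS and outside the gene, had a 5.99-fold enrichment in the CTR list and an 11.4-fold enrichment in the p63 list, 1.85 times the median change. Its reads went from 22 to 64, a ratio of 3.04 with an interval of 1.85 to 5.18. The TCF7L1 region (chromosome 2, 85288345 to 85288875), in an intron, went from 25 reads to 47, and that of FZD1 (chromosome 7, 91249137 to 91250088), 14622 bp upstream, from 16 to 36, at 1.70 and 1.63 times the median change. The WNT7B region with the printed site (chromosome 22, 46006332 to 46008130), 30412 bp upstream, went from 38 reads to 92, at 1.61 times the median change and a read ratio of 2.53 (1.72 to 3.79). All 4 had read ratios with intervals above 1.

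The largest changes the other way did not reach the limit of 1.5 times. They were at TCF7L1 (85259080 to 85259546), with 54 reads in the CTR list against 34 in the p63 list at 0.691 times the median change, at TCF7L2 (113199458 to 113199851), with 23 and 16 reads at 0.700 times, and at SFRP2 (153750164 to 153750455), with 27 and 28 reads at 0.703 times. At SFRP2 the reads at the summit were nearly equal although the fold enrichment differed, since the local background also entered that value. By read counts, 16 of the 145 shared pairs had intervals above 1, or 11% (6.91 to 17.2%), against 7.61% of all pairs, and 1 had an interval under 1, or 0.690%, against 1.35%. The latter was a region in an intron of TCF7L1 (85215525 to 85216202) that went from 45 reads to 25. Without scaling, 14 lay above 1 and 2 under 1, against 5.69% and 2.06% of all pairs. The promoter region of FZD8, a Frizzled receptor gene, was among the 16, with 24 reads in the CTR list against 42 in the p63 list, as was that of WNT9A with 45 and 70.

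**Figure D5:**
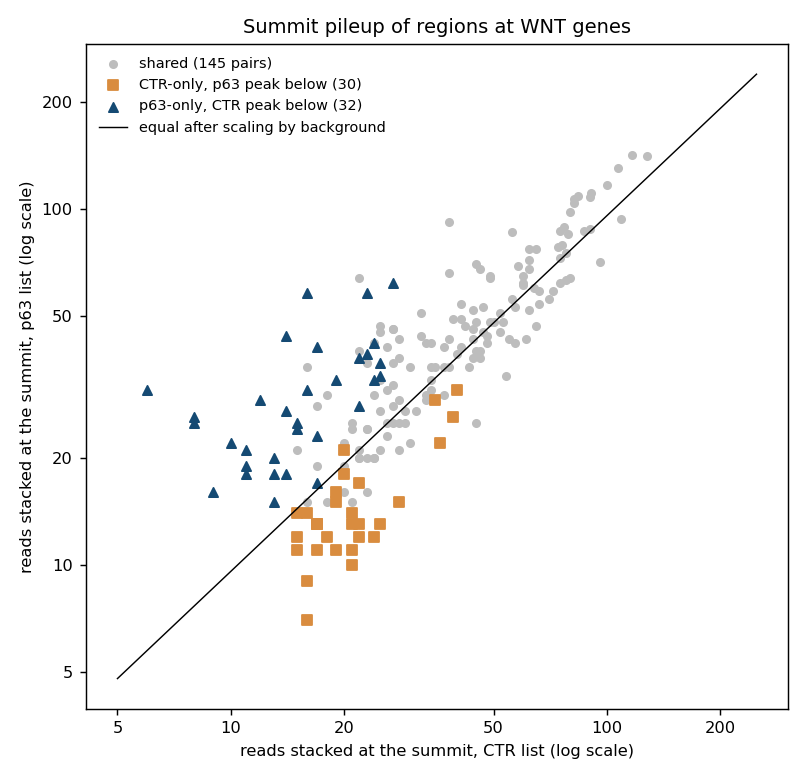
Reads stacked at the summit in the CTR list (horizontal) and the p63 list (vertical), both on log scales, for shared pairs and for list-only regions with a sub-threshold peak in the other list. The line marks equal coverage after scaling by the background. The 145 shared pairs follow the line, the 32 p63-only regions lie above it and the 30 CTR-only regions lie at or below it except for 1.

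The p63 site was more frequent in p63-only regions than in shared ones, at WNT genes as in the whole list. It was found in 6 of 49 p63-only regions, or 12.2% (5.73 to 24.2%), against 11.4% of all p63-only regions. By the summits of the p63 list, shared regions held it in 2 of 146, or 1.37% (0.376 to 4.86%), against 1.39% of all. By the summits of the CTR list they held it in 0 of 146 (0 to 2.56%), against 1.02% of all. CTR-only regions held it in 1 of 35, or 2.86% (0.506 to 14.5%), against 0.503%, and this region was near WNT6 and closer to CYP27A1. It had 24 reads in the CTR list against 12 in the p63 list, a ratio of 0.522 with an interval of 0.238 to 1.09. Among the 17 regions absent from the CTR list, 3 held a site, or 17.6% (6.19 to 41.0%), against 18.8%. With at most 2 mismatches none of the 49 held one, which allows a share of up to 6.12%, against 4.3% of all. With at most 4 mismatches, 14 did, or 28.6%, against 21.9%.

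The regions of the p63 list with a site were set beside their CTR peaks. There were 3 of this kind among the 32 p63-only regions with a CTR peak below the threshold, against 3.95% of all such regions. They lay at SFRP2, WNT7A and FZD5 and had ratios of 3.79, 3.28 and 3.27 with intervals above 1, in a direction fixed by the way p63-only regions were chosen. Over the whole list, 69.8% of such regions had an interval above 1, and 29.6% of those without a site. The 2 shared regions with a site, at WNT7B and DKK3, also had intervals above 1, with 38 reads against 92 and 25 against 45. Over all shared pairs the share was 35.4% with a site and 7.22% without one. The counts at WNT genes are too small to set against these shares.

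Of the other motifs, the CTCF motif was more frequent at WNT genes than over all regions. Several motifs and sets of regions were looked at, and no allowance was made for their number. The intervals of the AP-1 and TEAD shares in p63-only regions held the background. The AP-1 sequences TGACTCA or TGAGTCA were present in 11 of 49 p63-only regions, in the same windows of 100 bp on either side of a summit, or 22.4% (13 to 35.9%), against 22% of all, and the TEAD sequences ACATTCCA, ACATTCCT, GCATTCCA or GCATTCCT in 5, or 10.2% (4.44 to 21.8%), against 7.9%. The KLF sequences GGGCGGGGC, GGGCGTGGC, GGGTGGGGC or GGGTGTGGC were found in 1 p63-only region, against 4.07% of all, and in 10 of 146 shared regions, or 6.85%, against 8.11%. The TCF/LEF sequence CTTTGAT was found in 5 of the 195 regions, or 2.56% (1.1 to 5.86%), against 1.95% of all regions of the p63 list. The CTCF motif with at most 1 mismatch was found in 31 of the 181 CTR regions, or 17.1% (12.3 to 23.3%), against 9.78% of all, and in 24 of the 195 regions of the p63 list, or 12.3% (8.41 to 17.7%), against 8.4%. The interval of the CTCF share left out the share of all regions in both lists, in the p63 list by a narrow margin. The lists are not independent here, since most of their regions were shared. In the p63 list, the motif was found in 21 of 146 shared regions, or 14.4% (9.60 to 21.0%), against 8.86% of all. Among p63-only regions it was found in 3 of 49, or 6.12% (2.10 to 16.5%), against 6.94%. All motifs were searched on both strands, and none of these sequences contains another.

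The p63-only regions at WNT genes were intergenic more often than those of the whole list. Of the 49, 23 were intergenic, or 46.9% (33.7 to 60.6%), against 28.0% of all p63-only regions. Regions within 3 kb of a TSS of any gene made up 16.3% (8.51 to 29.0%), against 26%, and intragenic regions 36.7% (24.7 to 50.7%), against 46.0%. Of the 35 CTR-only regions, 22 were intragenic, or 62.9% (46.3 to 76.8%), against 47.9%. Shared regions were intergenic in 21.9% (16 to 29.3%), against 21.2% of all. The WNT list holds short genes with wide windows around them, such as FZD2 with a gene body of 3.78 kb, and the part of window size in these shares was not tested. In the same windows, WNT regions of the p63 list had a median GC content of 54.7%, against 50.2% over all its regions.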

How the data were processed

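ATAC-seq had been performed by the authors in duplicate in BJ fibroblasts expressing KLF4 alone or ΔNp63α and KLF4. Per the submitters' processing notes, reads were mapped to hg38 with Bowtie2 2.3.4.3 and peaks were called with MACS2, from both replicates of a condition per the methods. The version and options of MACS2, duplicate removal and the shift of reads for the transposase are not given in the sources used here. The deposited lists give for each peak a display score, the −log10 of its p-value and of its q-value, the offset of its summit in bp and a fold enrichment, the ratio of summit coverage over local background. The display score was not used further.

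Peaks on chromosomes 1 to 22, X and Y were analysed, 101142 for CTR and 109486 for p63, of which 56680 and 62343 had a −log10 q of 10 or more and were taken as open. The reads at each summit were solved from the deposited −log10 p and fold enrichment by the Poisson formula of the peak caller, which gave whole numbers within a −log10 p of 0.001 for 99.98% of the CTR peaks and 99.99% of the p63 peaks. The background coverage was solved likewise, and its p63/CTR ratio of 0.957 scaled the read ratios, whose 95% intervals are exact conditional binomial intervals. These reads are not independent molecules, and intervals cover counting error only. A count of 0 is given with the share that 3 counts would make. Overlap required 1 bp, shared pairs were reciprocal best overlaps, and genes and TSSs came from GENCODE release 44. For read ratios, a list-only region was set against the overlapping peak of highest −log10 q in the other list. Each count was that at the peak's own summit, so that a ratio can compare different positions. Backgrounds over genes used 20007 gene names. The p53/p63 family site and the CTCF motif were scanned by their consensus, and the steps were tested on simulated data. Named regions were each p63-only region absent from the CTR list, the 2 p63-only and 2 CTR-only regions of highest −log10 q in each class, and the 3 shared pairs of largest change in each direction, and further regions with intervals above 1 were named after their values were seen. The members and lists were chosen with earlier results of these data known. Python 3.11.15, pandas 2.3.3, scipy 1.17.1 and pysam 0.24.0 were used.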

Additional observations from a re-analysis of the deposited data

How the results depend on the processing

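No paired analysis was possible because each deposited list pools both replicates of its group, and for the same reason no replicate could be left out. Of 192 values computed under an alternative, 149 stayed within the counting interval of the main value, or within 1.5 times for a count, and 43 moved. The 149 include values that could not move. Merging touching peaks changed no value, and scaling by the median pileup ratio repeated the values without scaling. With all deposited peaks, the regions at WNT genes numbered 337 and 358. The CTR-only share of the other pathway genes was 21.7% (91 of 419), against 21.4% over all regions. Stronger and weaker shared pairs made up 9.02% and 5.10%, and no CTR-only region held a p63 site (0%). At a −log10 q of 20 or more, 89 and 119 regions remained. The CTR-only share was then 6.74% over all WNT genes, against 15.4% over all regions, which its interval left out. By class it rested on few regions: 8.82% at ligands (3 of 34), 9.09% at receptors (2 of 22) and 0% at antagonists (0 of 13). It was 5% at nuclear factors with AXIN2 (1 of 20) and 11.1% at the other pathway genes (14 of 126). At that threshold the share of stronger pairs and of p63 sites in shared and CTR-only regions was 0%. Windows of 20 kb left 129 regions of the p63 list, and windows of 100 kb gave 298 and 320. Counting only regions that overlapped no peak at all gave p63-only shares of 8.72% at all WNT genes, 8.86% at ligands, 11.9% at receptors, 3.57% at antagonists, 8.70% at nuclear factors with AXIN2 and 6.48% at the other pathway genes. The CTR-only shares were 2.76%, 1.30%, 7.69%, 0%, 2.44% and 3.11%, with sites in 0%. The p63-only share of the other pathway genes was 27.1% with an overlap of 50% of both peaks and 27.5% with the nearest TSS. By percentile ranks within each list, a difference of 20 points was called in 15.9% of pairs upward and 6.90% downward, and a limit of 2-fold called 0%. Sites with at most 2 mismatches were found in 0% of p63-only, shared and CTR-only regions, with at most 4 in 28.6% of p63-only regions, and within 50 bp in 0% of CTR-only regions. For promoters, a window of 1 kb gave 23 genes for CTR and 24 for p63, with LEF1 and WNT4 in the p63 list alone and WNT9A in the CTR list alone. Canonical TSSs gave 22 and 24, with LEF1 and WNT4 in the p63 list alone, and a −log10 q of 20 or more gave 21 and 22, with FZD8 in place of LEF1, while over all deposited peaks both lists gave 35, with WNT9B and WNT2 in place of LEF1. The causes of these moves were not tested beyond the smaller or larger sets that the settings select. Scaling by the median pileup ratio of all pairs, which is 1, and no scaling were chosen after seeing the data, and both gave 34.4% of p63-only regions with an interval above 1 in place of 50%. The lowest summit at the threshold carried 15 reads in each list, so that regions of lower coverage could not be counted as open, and single regions near that depth had wide intervals.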
